A study of Mus musculus with 18 samples.

Results

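Mouse embryonic stem cells (ESCs) and extra-embryonic endoderm stem (XEN) cells were compared with each other in normoxia, without the hypoxia to which the series exposes them. ESCs are grown from the epiblast of the early embryo and can give rise to all tissues of the fetus, whereas XEN cells are grown from the primitive endoderm, the layer that lines the blastocyst cavity and later forms the yolk sac. The comparison used the 2 normoxic libraries of each cell type, 4 of the 18 libraries of the series, whose other libraries are ESCs and XEN cells on days 2 and 7 of hypoxia and trophoblast stem cells (TSCs) in all conditions. The ESCs were of the E14 line and grew without feeders on gelatin, in serum medium to which LIF was added. The labels give no line for the XEN cells, whose medium was conditioned on mouse embryonic fibroblasts and mixed with unconditioned medium at 7:3. The labels name no transgene, deletion or drug for these 4 cultures. Values for ESCs therefore stand for 1 line. Total RNA was sequenced, and the authors deposited TPM (transcripts per 1000000, a read count divided by gene length and scaled to the library), with 1 table per cell type.

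A cell type's table holds only the protein-coding genes detected in that cell type, so genes fell into 3 sets. Of the 14045 genes in either table, 11071 were in both, 2507 were in the ESC table only and 467 in the XEN table only. The shared genes made up at least 97.6% of the TPM of an ESC library and 99.6% of a XEN library. Each library was rescaled to a sum of 1000000 over the shared genes, and all levels below are these rescaled TPM. The deposited values are per whole gene span, introns included, and the same span was used in both tables, so that a gene can be compared between cell types while the order of different genes depends on their spans. Cell type and table cannot be told apart in this design. The libraries held between 37760283 and 72029024 recovered reads on genes.

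The line between epiblast and primitive endoderm is drawn in the blastocyst. FGF4 from epiblast cells signals through FGF receptors and ERK in their neighbours, which turn on GATA6, PDGFRA, SOX17 and GATA4, while NANOG, SOX2 and OCT4 (encoded by Pou5f1) hold the pluripotent state. Primitive endoderm then gives parietal endoderm, which secretes the thick basement membrane known as Reichert's membrane, and visceral endoderm, which takes up and exports nutrients and lipoproteins. XEN cells are known as a model of this lineage.

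The replicates of each cell type were close to each other beside the distance between the cell types. Pearson's r on the log2 scale, taken across the 10707 genes tested (genes are not replicates), was 0.996 between the ESC libraries, 0.984 between the XEN libraries and between 0.788 and 0.801 for an ESC with a XEN library. The XEN libraries differed more than the ESC libraries. A level more than 2-fold apart between replicates was seen for 4.07% of the genes in XEN cells, 319 higher in replicate 1 and 117 in replicate 2, and for 0.336% in ESCs. Keratins and junction genes were among those higher in XEN replicate 1. For some genes named below the difference is also given without one of these libraries. Not every gene with a gap of over 2-fold is treated so, as with Sox7 and Krt18.

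The limma test was run on log2(TPM + 0.5) for genes whose rescaled TPM passed 0.4 in 2 or more libraries. Genes were called differentially expressed (DE) when they changed by more than 1.5-fold with a Benjamini-Hochberg adjusted p of 0.1 or less. Differences are given as ESC minus XEN on this log2 scale with their SE, so that a positive value is higher in ESCs. With 2 libraries a side, single-gene permutations are too few to pass any usual threshold, and the significance calls depend on limma's pooling of variance across genes. By these thresholds 2927 genes were higher in ESCs, 27.3% of those tested, and 3321 were higher in XEN cells, 31.0% of those tested. Over 4-fold, 610 genes were higher in ESCs (5.70%) and 940 in XEN cells (8.78%), and over 16-fold 133 and 189. Libraries of the 2 cell types did not overlap for 85.5% of the genes tested. These shares are the background for the counts that follow, since a list of genes drawn at will would hold many DE genes. The 10 largest differences in each direction stood far from the diagonal in the plot of both cell types, and a rule that needs a level in each table left out genes detected in a single cell type.

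**Figure D1:**
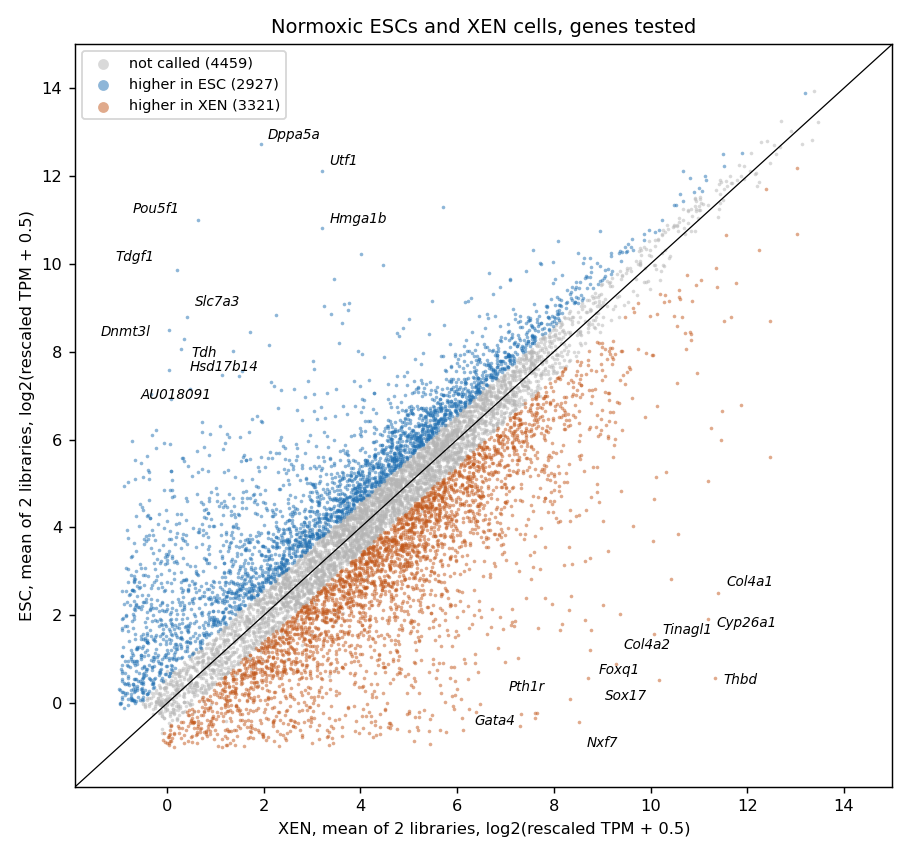
Mean of the 2 normoxic libraries of ESCs (vertical axis) against XEN cells (horizontal axis), log2(rescaled TPM + 0.5), for the 10707 genes tested. Blue points are the 2927 genes higher in ESCs and orange points the 3321 higher in XEN cells, and the named genes are the 10 with the largest difference in each direction, between Dppa5a at 10.76 and Thbd at -10.76.

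The defining markers followed the labels. All 4 ESC markers present in both tables were DE and higher in ESCs. Pou5f1, which encodes the central factor of pluripotency, had 2028 and 2022 TPM in the ESC libraries and 0.846 and 1.27 in the XEN libraries (difference 10.36 ± 0.16, adjusted p = 1.76e-05). Dppa5a, an RNA-binding protein of ESCs, had 5651 and 7813 TPM in ESCs and 3.30 and 3.36 in XEN cells (10.76 ± 0.17, adjusted p = 1.76e-05). Utf1, a chromatin protein of ESCs, and Tdgf1, the Nodal co-receptor, were also higher in ESCs, by 8.91 ± 0.11 and 9.79 ± 0.41, the latter 9.16 or 10.43 without XEN replicate 2 or 1. The other 4 ESC markers, Sox2, Nanog, Zfp42 and Esrrb, were in the ESC table only, with means of 3196, 830, 688 and 43.3 TPM.

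XEN markers were as clearly apart. All 7 in both tables were DE and higher in XEN cells. Gata4, a pioneer factor of endoderm, had 0.289 and 0.306 TPM in ESCs and 198 and 194 in XEN cells (-7.94 ± 0.14, adjusted p = 1.76e-05). Sox17, which marks committed endoderm, had 1.11 and 0.787 TPM in ESCs and 1295 and 1013 in XEN cells (-9.64 ± 0.18, adjusted p = 1.76e-05). The summed level of the ESC markers was 17900 and 19900 TPM in ESCs and 14.2 and 13.4 in XEN cells, and that of the XEN markers was 15.1 and 10 in ESCs and 2550 and 2630 in XEN cells. No library lay between the groups for any of these genes.

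**Figure D2:**
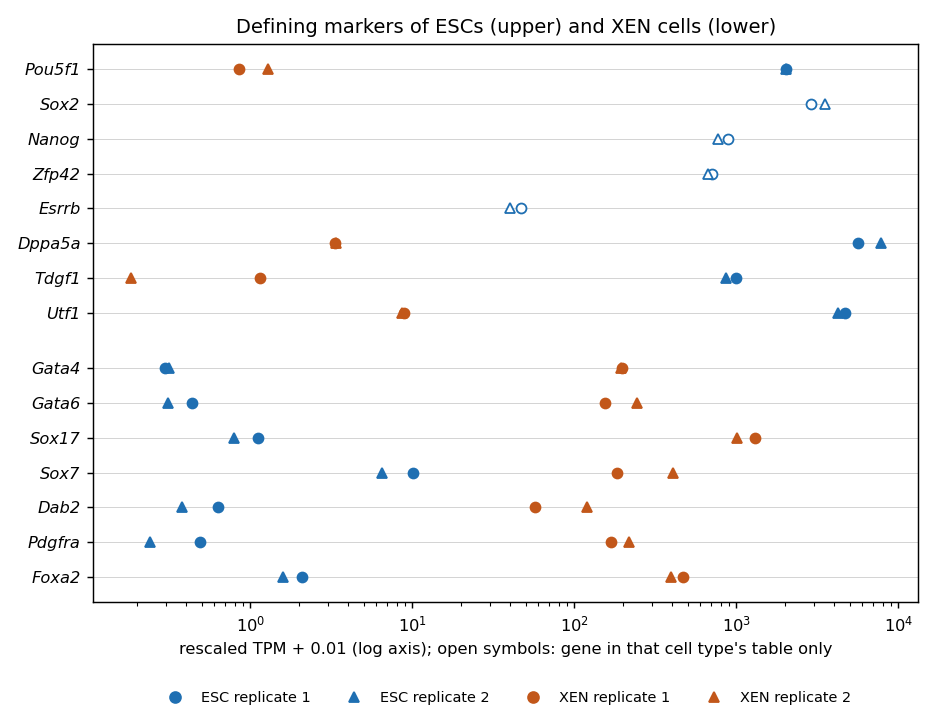
Rescaled TPM + 0.01 (log axis) of the ESC markers (upper 8) and 7 XEN markers (lower rows) in each of the 4 normoxic libraries, with circles for replicate 1 and triangles for replicate 2. Open symbols are genes held by the table of 1 cell type only. Pou5f1 lies at 2028 and 2022 in ESCs against 0.846 and 1.27 in XEN cells, and Gata4 at 0.289 and 0.306 against 198 and 194.

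Markers of other cell types were summed in the same way. Of 6 trophoblast markers 3 were in both tables, and the sum of all 6 was 15.6 and 17.2 TPM in ESCs and 3.74 and 3.73 in XEN cells. The XEN medium was conditioned on fibroblasts, whose 6 markers summed to 29.0 and 25.4 TPM in ESCs, mostly Thy1 at 27.2 and 23.6, and to 0.0674 and 0.201 in XEN cells. Of these 1 was in both tables, Col1a2 at 0.0674 and 0.201 TPM in XEN cells, while Col1a1, Col3a1 and Thy1 were in the ESC table only and Twist2 and Prrx1 in neither. The 4 markers of the 2-cell-like state, a rare state of ESC cultures, were in the ESC table only and summed to 90.5 and 73.0 TPM. Of the primitive streak markers, T, Eomes and Mixl1 were in the ESC table only and Tbx6, at 1.27 and 0.451 TPM in ESCs and 1.37 and 1.39 in XEN cells, was not DE.

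Of the 15 core pluripotency genes, 11 were tested, of which 10 were higher in ESCs and 0 in XEN cells, with a median difference of 5.96 beside 0.01 for all genes tested. The other 4, Sox2, Nanog, Fgf4 and Foxd3, were in the ESC table only. Dppa2 and Dppa4, a pair of chromatin proteins, were higher in ESCs by 6.83 ± 0.16 and 6.69 ± 0.14. L1td1, an RNA-binding protein, kept 179 and 198 TPM in XEN cells beside 1372 and 1178 in ESCs (2.75 ± 0.13). Lin28a, which blocks let-7 maturation, was at 564 and 528 TPM in ESCs and 428 and 553 in XEN cells, the groups overlapped, and it was not DE (0.16 ± 0.15, adjusted p = 0.38). Sall4 had 448 and 447 TPM in ESCs and 171 and 325 in XEN cells (0.93 ± 0.30, adjusted p = 0.0367), and its call was lost without either ESC library or without XEN replicate 1, where the difference was 0.46.

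The naive factors were split between the tables. Of 15, 8 were in the ESC table only, among them Nr0b1, Zfp42, Gbx2, Tcl1 and Prdm14. Of the 7 tested, 4 were higher in ESCs and 1 in XEN cells. Klf2 had 1004 and 1391 TPM in ESCs and 9.67 and 21.5 in XEN cells (6.30 ± 0.38, adjusted p = 0.000113), and Tfcp2l1, a LIF target, had 115 and 96.1 against 4.37 and 4.48 (4.42 ± 0.15). Klf4 went the other way, with 449 and 452 TPM in ESCs and 1198 and 824 in XEN cells (-1.14 ± 0.19, adjusted p = 0.00367). Klf5 and Tbx3 were not DE (adjusted p = 0.157 and 0.144). All 7 tested genes of formative and primed pluripotency were higher in ESCs, with a median of 4.11, and the other 3, Fgf5, Lef1 and Sox3, were in the ESC table only. Pou3f1, which encodes OCT6, had 84.8 and 175 TPM in ESCs and 0.482 and 0.0982 in XEN cells.

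The promoters of 2 of the genes held by the ESC table only are shown because both carry letters that OCT4 is known to read. That of Nanog also carries letters that SOX2 is known to read. The 250 bases before the RefSeq start (GRCm38.p6) are given 5′ to 3′ on the strand of the gene, Nanog at chr6:122707239-122707488 and Sox2 at chr3:34649745-34649994, both on the plus strand. Capitals mark the octamer core (ATGCAAA, or TTTGCAT on the other strand) and a SOX site (ACAATG, or CATTGT).
Nanog: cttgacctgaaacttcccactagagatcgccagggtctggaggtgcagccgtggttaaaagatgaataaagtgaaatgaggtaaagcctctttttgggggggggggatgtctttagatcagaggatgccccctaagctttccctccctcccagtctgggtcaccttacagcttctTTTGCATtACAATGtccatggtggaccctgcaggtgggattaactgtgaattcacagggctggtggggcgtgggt
Sox2: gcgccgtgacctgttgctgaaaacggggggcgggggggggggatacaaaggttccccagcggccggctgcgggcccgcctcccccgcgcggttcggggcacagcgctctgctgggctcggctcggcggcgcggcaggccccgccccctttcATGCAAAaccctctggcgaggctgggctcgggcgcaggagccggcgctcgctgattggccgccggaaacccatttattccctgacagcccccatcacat
In Nanog both sites stand side by side, the octamer core from 75 and the SOX site from 67 bases before the start. In Sox2 the octamer core begins 99 bases before the start, and no SOX site was found in the window. The octamer core was found on either strand in 4.06% of 27025 promoters and in 2.79% of the 8649 promoters of genes tested. It was in 26 of 455 promoters of genes over 4-fold higher in ESCs (5.71%), in 14 of 759 over 4-fold higher in XEN cells (1.84%), in 4.69% of those in the ESC table only and in 3.60% of those in the XEN table only. A GATA site (AGATAA, or TTATCT) was in 5.93% of the promoters of genes over 4-fold higher in XEN cells, 4.18% of those over 4-fold higher in ESCs and 5.39% of all genes tested. The GATA site was in 12.9% of promoters for the XEN table only and in 7.01% for the ESC table only. Over all 27025 promoters its share was 10.3%. The SOX site was in 6.15% of promoters of genes over 4-fold higher in ESCs and in 6.59% for XEN cells. It was in 5.75% of the promoters of genes tested, 6.79% for the ESC table only and 10.2% for the XEN table only. These are counts of letters, and binding was not measured.

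Primitive endoderm transcription factors were mostly higher in XEN cells. Of 15, 1 was in the ESC table only, 2 in the XEN table only and 2 in neither. Of the 10 tested, 8 were higher in XEN cells, each by over 4-fold, and 1 in ESCs, with a median of -6.27. Gata6, the earliest of them in the embryo, had 0.425 and 0.301 TPM in ESCs and 155 and 245 in XEN cells (-7.83 ± 0.25, adjusted p = 2.95e-05). Foxa2 had 2.06 and 1.57 TPM against 467 and 395 (-7.54 ± 0.17). Sox7 was already above 6 TPM in ESCs, at 10.1 and 6.48, and reached 183 and 409 in XEN cells (-4.99 ± 0.41). Foxq1, a forkhead factor, had 0.870 and 1.14 TPM in ESCs and 595 and 236 in XEN cells, a difference between -8.63 and -7.30 without one or the other XEN library. Hnf4a, the hepatocyte and visceral endoderm factor, differed less, with 5.76 and 3.12 TPM in XEN cells (-2.46 ± 0.29, adjusted p = 0.00101). Sall1 was not DE, and Foxa3 was higher in ESCs at 1.45 and 1.61 TPM.

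Genes of the parietal and of the visceral branch did not stand alike. All 9 parietal endoderm genes were tested and were higher in XEN cells, each over 4-fold, with a median of -6.37. As with every list here, the members were chosen with earlier results of these data known, so the count is a description and no independent test. Thbd, which encodes the anticoagulant receptor thrombomodulin, had the largest difference of all genes in this direction, with 1.22 and 0.741 TPM in ESCs and 2170 and 2952 in XEN cells (-10.76 ± 0.22, adjusted p = 1.78e-05). Pth1r, the receptor for parathyroid hormone-related peptide, had 0.453 and 0.697 TPM in ESCs and 218 and 423 in XEN cells (-8.15 ± 0.33). Sparc, a collagen-binding matrix protein, had 131 and 88.6 TPM in ESCs and 3512 and 3985 in XEN cells (-5.11 ± 0.21), and the EMT factor Snai1 had 21.3 and 16.2 against 292 and 408 (-4.18 ± 0.21).

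Of 19 visceral endoderm genes, 3 were in the ESC table only, 4 in the XEN table only and 4 in neither. Of the 8 tested, 5 were higher in XEN cells and 1, Apoe, was higher in ESCs. The endocytic receptor genes were among the first, with Cubn at 0.180 and 0.134 TPM in ESCs and 42.1 and 56.5 in XEN cells (-6.23 ± 0.20) and Dab2, the adaptor of that receptor, at 0.621 and 0.367 against 57.5 and 119 (-6.40 ± 0.37). Of the secreted products, Ttr, Apoa2 and Afp were in the XEN table only, at 3.66 and 5.16, 5.14 and 6.13, and 1.62 and 0.291 TPM, and Apoa1, Apoa4, Trf and Cer1 were in neither table. Ihh, a hedgehog ligand of visceral endoderm, was in the XEN table only at 80.4 and 59.6 TPM. Apoe, a lipoprotein component, had 971 and 634 TPM in ESCs and 149 and 124 in XEN cells (2.52 ± 0.23, adjusted p = 0.00038).

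The structural genes of the basement membrane were mostly higher in XEN cells. Of 14 tested, 11 were higher in XEN cells and 2 in ESCs, with a median of -2.30. The 3 chains of laminin 111 moved together: Lama1 had 15.1 and 12.7 TPM in ESCs and 1248 and 1775 in XEN cells (-6.70 ± 0.20, adjusted p = 2.54e-05), Lamb1 33.2 and 32.8 against 1942 and 2746 (-6.11 ± 0.18), and Lamc1 79.2 and 72.5 against 2149 and 2727 (-4.99 ± 0.15). The genes of collagen IV, which forms the sheet that laminin is tied to, were far lower in ESCs. Col4a1 had 5.52 and 4.90 TPM there and 2294 and 3072 in XEN cells (-8.86 ± 0.17, adjusted p = 1.76e-05), and Col4a2, its head-to-head neighbour on chromosome 8, had 1.61 and 1.13 against 517 and 733 (-8.38 ± 0.22). The linkers between the sheets differed less, Nid1 by -2.21 ± 0.42, between -2.86 and -1.56 without one or the other XEN library, and Hspg2, the perlecan gene, by -1.77 ± 0.25. Lama5, the laminin chain that replaces Lama1 in later tissues, was higher in ESCs at 102 TPM in both libraries against 42.5 and 49.3 (1.15 ± 0.12), as was Fbln1. In the ESC table only were 4 genes of this list, among them Col18a1, and 0 were in the XEN table only.

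The enzymes that fold, modify and ship collagen followed. Of 13 tested genes of collagen processing 12 were higher in XEN cells and 0 in ESCs, with a median of -3.36. Serpinh1, the collagen chaperone HSP47, had 52.1 and 43.5 TPM in ESCs and 5038 and 6365 in XEN cells (-6.88 ± 0.16, adjusted p = 2.21e-05). The prolyl hydroxylase subunits P4ha1 and P4ha2 differed by -6.18 ± 0.13 and -7.12 ± 0.16, and their shared partner P4hb by -2.87 ± 0.14, with 454 and 432 TPM in ESCs. The lysyl hydroxylase gene Plod2 had 8.97 and 8.02 TPM in ESCs and 307 and 357 in XEN cells (-5.21 ± 0.14). Of 26 genes of the secretory pathway and unfolded protein response, 23 were higher in XEN cells and 0 in ESCs, with a median of -1.46. The changes were smaller and the levels high in both: Hspa5, the main chaperone of the endoplasmic reticulum, had 1317 and 1244 TPM against 4117 and 5620 (-1.91 ± 0.18), and Calr, the lectin chaperone, 1805 and 1445 against 7011 and 9632 (-2.35 ± 0.21). Creb3l2, a factor of secretory cells, stood out with 0.626 and 0.420 TPM against 56.4 and 50.4 (-5.72 ± 0.18). Sec61b, Ssr2 and Atf4 were not DE.

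**Figure D3:**
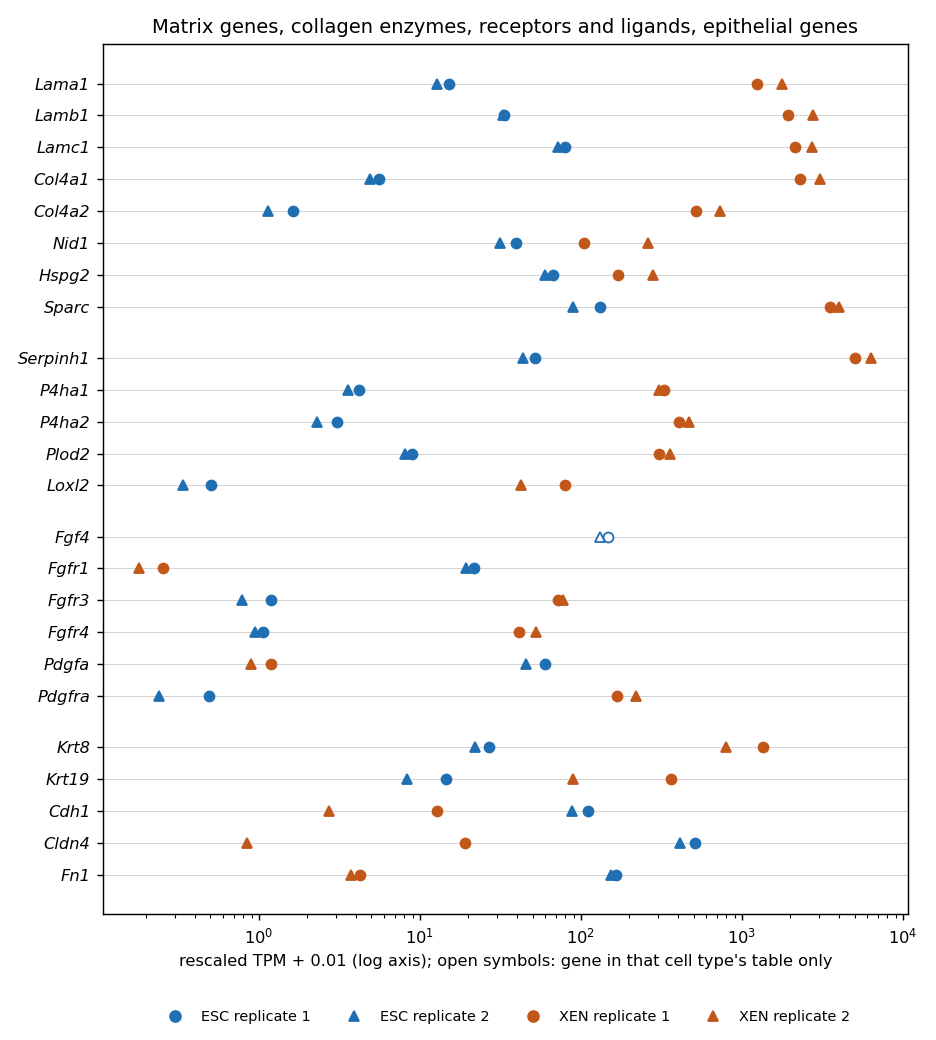
Rescaled TPM + 0.01 (log axis) in each normoxic library, with circles for replicate 1 and triangles for replicate 2, for matrix genes, collagen enzymes, ligands and receptors, and epithelial genes from top to bottom. The 2 XEN libraries lie above the 2 ESC libraries for each gene of the top group. Lama1, for example, lies at 1248 and 1775 against 15.1 and 12.7. Fn1, a matrix gene shown in the lowest group, lies the other way. The XEN libraries lie far apart from each other for Cldn4 at 19.1 and 0.833. Fgf4 is in the ESC table only.

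Receptors for this matrix were higher in XEN cells for 9 of 12 tested integrins and matrix receptors, and higher in ESCs for 1, Itgb4 (1.38 ± 0.34), whose call was lost without ESC replicate 1 (1.18). Another 5 of the 19 members were in the ESC table only and 0 in the XEN table only, and the 5 could not be tested. Itgav had 3.70 and 3.44 TPM in ESCs and 36.5 and 26.0 in XEN cells (-2.94 ± 0.20). Itgb1, the common beta chain, had 54.3 and 46.5 against 114 and 86.2 (-0.97 ± 0.17). Itga6, the alpha chain that pairs with it for laminin, was not DE (0.41 ± 0.31, adjusted p = 0.287), nor was the dystroglycan gene Dag1 (0.49 ± 0.19, adjusted p = 0.0672, under 1.5-fold). Cd44 was at 0.115 and 0.0609 TPM in ESCs and at 28.8 and 8.57 in XEN cells (-4.79 ± 0.53, and -3.95 or -5.64 without XEN replicate 1 or 2).

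Epithelial genes divided by kind. Of 18 tested keratins and junction genes 8 were higher in ESCs and 7 in XEN cells. The simple keratins were higher in XEN cells, Krt8 at 26.7 and 22.1 TPM in ESCs and 1356 and 792 in XEN cells (-5.39 ± 0.27) and Krt18 at 42.5 and 33.8 against 1762 and 804 (-4.96 ± 0.37). The adhesion genes Cdh1 and Cldn4 and the epithelial factors Grhl2 and Esrp1 were higher in ESCs. Cdh1, which encodes E-cadherin, had 111 and 87.8 TPM in ESCs and 12.7 and 2.73 in XEN cells, a difference of 3.92 ± 0.63 that was 2.91 without XEN replicate 2 and 4.94 without XEN replicate 1. Cldn4 had 510 and 411 TPM in ESCs and 19.1 and 0.833 in XEN cells (6.49 ± 1.18, and 4.55 or 8.42 without one or the other XEN library), and Krt19 14.4 and 8.25 against 360 and 89.5 (-3.98 ± 0.66, and -2.98 or -4.98 without XEN replicate 1 or 2). The XEN libraries thus lie further apart for Krt19, Cdh1 and Cldn4 than for Krt8 and Krt18, and the part of this in each difference was not tested. Of 7 mesenchymal genes tested 3 were higher in XEN cells and 2 in ESCs. Vim had 294 and 242 TPM in ESCs and 1519 and 1865 in XEN cells (-2.66 ± 0.16), Cdh2 was below 1 TPM in all 4 libraries, and Twist1 and Snai2 were in the ESC table only. Fn1, the fibronectin gene, was higher in ESCs, at 164 and 153 TPM against 4.23 and 3.70 (5.16 ± 0.13, adjusted p = 2.29e-05).

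FGF ligands and receptors were divided between the cell types. Fgf4 was in the ESC table only at 147 and 131 TPM, and Fgf15 and Fgf17 likewise. Of the receptors, Fgfr1 had 21.6 and 19.3 TPM in ESCs and 0.244 and 0.171 in XEN cells (4.89 ± 0.17, adjusted p = 3.28e-05), whereas Fgfr3 had 1.18 and 0.776 against 72.3 and 76.9 (-5.68 ± 0.19) and Fgfr4 1.05 and 0.941 against 41.5 and 52.4 (-4.98 ± 0.18). Fgfr2 was below 0.3 TPM in all 4 libraries and was not tested. The ligand gene Fgf3 was higher in XEN cells, at 67.4 and 57.3 TPM against 3.32 and 1.95 in ESCs (-4.36 ± 0.25). Of the targets and inhibitors that ERK signalling is known to induce, Spry4 (2.69 ± 0.11), Spred1 and Etv5 were higher in ESCs. Dusp4 was higher in XEN cells at 172 and 50.4 TPM against 22.2 and 19.6 (-2.13 ± 0.55, and -3.02 or -1.25 without one or the other XEN library). Of the 15 genes of FGF and ERK feedback tested, 9 were higher in ESCs and 5 in XEN cells.

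Pdgfra and its ligand were on opposite sides. Pdgfra, the receptor that primitive endoderm is sorted by, had 0.480 and 0.230 TPM in ESCs and 168 and 219 in XEN cells (-7.83 ± 0.22, adjusted p = 2.41e-05), and Pdgfa, the ligand, 59.7 and 45.6 against 1.17 and 0.885 (5.11 ± 0.20, adjusted p = 4.44e-05). Kit had 14.4 and 11.1 TPM in ESCs and 86.3 and 107 in XEN cells (-2.87 ± 0.18), the insulin receptor gene Insr 0.636 and 0.560 against 5.83 and 5.14 (-2.44 ± 0.16), and Vegfa 20.5 and 18.5 against 126 and 81.2 (-2.35 ± 0.22). Of 15 tested receptor tyrosine kinases and ligands outside the FGF family 9 were higher in XEN cells and 5 in ESCs. Another 4 were in the ESC table only and 1 in the XEN table only.

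LIF, the cytokine that holds ESCs in self-renewal, was part of the ESC medium and is not among the listed parts of the XEN medium. Its gene Lif had 4.87 and 3.75 TPM in ESCs and 27.8 and 23.8 in XEN cells (-2.46 ± 0.19, adjusted p = 0.000228). Its receptor gene Lifr was at 18.8 and 15.6 TPM against 44.9 and 49.6 (-1.44 ± 0.15), and the partner Il6st was not DE. The feedback genes Socs2 and Pim1 were higher in ESCs, by 3.56 ± 0.24 and 1.90 ± 0.13, and Socs3 overlapped between the groups. Of 11 tested genes of this pathway 6 were higher in XEN cells and 3 in ESCs.

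Nodal itself, with Lefty1, Lefty2 and Gdf3, was in the ESC table only, Nodal at 155 and 137 TPM. Of 12 tested genes of Nodal and activin signalling 5 were higher in ESCs and 4 in XEN cells. Foxh1, the nuclear partner of SMAD2, had 513 and 396 TPM in ESCs and 5.56 and 2.96 in XEN cells (6.62 ± 0.29). The extracellular inhibitor Fst, follistatin, had 14.6 and 10.2 against 1213 and 916 (-6.37 ± 0.22, adjusted p = 3.31e-05). Furin, a protease that matures the Nodal precursor, had 9.10 and 8.71 TPM in ESCs and 663 and 140 in XEN cells, and its difference of -5.02 ± 0.68 was -6.14 or -3.90 without one or the other XEN library. The receptor genes Acvr1b and Acvr2a were not DE.

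BMP ligands were exchanged between the cell types. Bmp4 was in the ESC table only at 66.2 and 47.9 TPM, and Bmp2 had 0.483 and 0.343 TPM in ESCs and 64.8 and 86.6 in XEN cells (-6.37 ± 0.20). XEN cells also expressed the antagonists: Nog, noggin, had 4.59 and 2.58 TPM in ESCs and 633 and 677 in XEN cells (-7.37 ± 0.25, adjusted p = 3.05e-05), and Bmper was in the XEN table only at 12.3 and 10.7. Id1, a target of BMP signalling, was higher in ESCs at 884 and 873 TPM against 139 and 61.7 (3.24 ± 0.37). The targets Id2 and Id3 were also higher in ESCs, with opposite gaps between the XEN libraries. Id2 differed by 3.68 ± 0.78 (2.41 or 4.95 without XEN replicate 1 or 2) and Id3 by 3.75 ± 0.68 (4.84 or 2.67), while Id4 was higher in XEN cells (-1.98 ± 0.21). Of 14 tested genes 8 were higher in XEN cells and 5 in ESCs. Another 6 were in the ESC table only and 2 in the XEN table only, and could not be tested.

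Of 23 tested Wnt genes 10 were higher in XEN cells, 6 in ESCs and 7 were not DE. Another 12 were in the ESC table only and 2 in the XEN table only, and could not be tested. The targets Axin2 and Tcf7 were higher in ESCs, Axin2 at 10.6 and 7.78 TPM against 0.193 and 0.528 (3.50 ± 0.26) and Tcf7 by 3.65 ± 0.17, and the targets Sp5, Notum and Lef1 were in the ESC table only. Wnt11 was higher in XEN cells at 25.6 and 20.2 TPM against 0.645 and 0.366 (-4.55 ± 0.22), and the inhibitor Dkk1 was in the XEN table only at 23.3 and 46.7 TPM.

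Retinoic acid genes differed throughout: of 9 tested, 5 were higher in XEN cells, 4 in ESCs and 0 were not DE. Cyp26a1, which degrades retinoic acid, had 3.99 and 2.52 TPM in ESCs and 2775 and 1872 in XEN cells (-9.27 ± 0.26, adjusted p = 2.41e-05). Stra6, the receptor that takes up retinol, had 0.0251 and 0.0713 against 29.6 and 38.2 (-5.96 ± 0.19), and the reductase gene Dhrs3 0.137 and 0.188 against 3.22 and 2.80 (-2.40 ± 0.16). The nuclear receptors went the other way, Rarg with 205 and 171 TPM in ESCs and 1.70 and 3.12 in XEN cells (6.06 ± 0.26) and Rxra with 3.99 and 3.03 against 0.0644 and 0.0437 (2.85 ± 0.18). The synthetic enzyme genes Aldh1a2 and Crabp1 and Crabp2, for the carriers of retinoic acid in the cell, were in the ESC table only, and Aldh1a1 was in neither. The promoter of Cyp26a1 is shown because it holds the letters that retinoic acid receptors are known to bind (chr19:37697558-37697807, plus strand, GRCm38.p6, the 250 bases before the RefSeq start). Capitals mark the half-site TGAACT, which reads as AGTTCA on the other strand.
Cyp26a1: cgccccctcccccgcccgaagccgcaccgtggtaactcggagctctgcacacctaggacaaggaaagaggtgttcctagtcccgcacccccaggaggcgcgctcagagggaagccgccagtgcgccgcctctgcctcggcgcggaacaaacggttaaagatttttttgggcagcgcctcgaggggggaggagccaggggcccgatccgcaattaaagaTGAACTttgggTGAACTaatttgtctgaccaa
The half-site stands there 2 times, from 32 and from 21 bases before the start, with 5 bases between the copies. This exact pair, on either strand, was found in 6 of 27025 promoters and in 1 of the 8649 promoters of genes tested, this one. The letters and spacing searched were those of this promoter. Pairs with other letters or spacings were not counted, so these counts do not show how common such sites are. Single half-sites were common, in 8.27% of the promoters of genes tested.

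Genes of chromatin were shifted between paralogs. Of 12 tested genes of DNA methylation and demethylation, 7 were higher in ESCs and 4 in XEN cells. The de novo methyltransferases were higher in ESCs, Dnmt3a by 2.84 ± 0.21 and Dnmt3b by 2.20 ± 0.11, and their cofactor Dnmt3l had 370 and 345 TPM in ESCs and 0.200 and 0.872 in XEN cells (8.51 ± 0.32, adjusted p = 4.01e-05). The maintenance enzyme gene Dnmt1 was under 1.5-fold and not DE, at 127 and 111 TPM against 99.7 and 96.4. Of the dioxygenases that start demethylation, Tet1 had 84.8 and 82.5 TPM in ESCs and 2.76 and 3.99 in XEN cells (4.46 ± 0.19), Tet2 37.8 and 32.1 against 0.243 and 0.181 (5.64 ± 0.17), and Tet3 2.18 and 2.31 against 18.3 and 16.4 (-2.70 ± 0.16).

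Of 23 tested Polycomb genes 8 were higher in ESCs, 6 in XEN cells and 9 were not DE, close to the shares of all genes. Within PRC2, Jarid2 and Mtf2, its recruiting subunits, were higher in ESCs by 3.66 ± 0.13 and 2.87 ± 0.12 and the core subunit Eed by 2.55 ± 0.11, while the catalytic Ezh2 did not reach 1.5-fold (0.58 ± 0.12). Within PRC1, Cbx7 had 71.3 and 65.4 TPM in ESCs and 0.380 and 0.236 in XEN cells (6.42 ± 0.17), and Cbx8, which holds the same place in the complex, was higher in XEN cells (-3.39 ± 0.27). Bmi1 and Pcgf5, of the ring finger subunits, were higher in XEN cells, and Pcgf1, Pcgf2 and Pcgf3 were not DE.

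Germline genes, many of them known to be silenced by promoter methylation, were detected mainly in ESCs: 14 of 21 were in the ESC table only, among them Dazl at 8.06 and 7.44 TPM and Ddx4 at 6.50 and 4.92, and all 5 tested were higher in ESCs. Tex19.1 had 515 and 475 TPM in ESCs and 14.1 and 11.8 in XEN cells (5.21 ± 0.13). Of the 15 genes of the 2-cell-like state 13 were in the ESC table only, at means up to 26.8 TPM for Zscan4d and Zscan4c, and 2 in neither. The Zscan4 and Usp17l genes are near-identical copies between which reads may have been split. Of 16 tested imprinted genes 8 were higher in ESCs and 4 in XEN cells. Grb10, an inhibitor of insulin signalling, had 30.3 and 30.2 TPM in ESCs and 0.0600 and 0.0210 in XEN cells (5.83 ± 0.16), Mest 14.6 and 11.1 against 0.410 and 0.121 (4.14 ± 0.25), and Peg3 36.2 and 45.3 against 565 and 338 (-3.41 ± 0.26). Peg10 overlapped between the groups.

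Of 76 tested subunits of oxidative phosphorylation 66 were not DE, 7 were higher in XEN cells and 3 in ESCs, with a median of -0.04, well below the share of DE genes among all genes. The exceptions included Cox8a at 696 and 726 TPM in ESCs and 2475 and 2800 in XEN cells (-1.89 ± 0.12) and Ndufb8 at 116 and 114 against 608 and 663 (-2.46 ± 0.11). Of 82 cytosolic ribosomal proteins 67 were not DE, 12 were higher in ESCs and 3 in XEN cells. Their median was 0.34, beside 0.01 for all genes tested. Of 24 genes of glycolysis and lactate 12 were not DE, 7 were higher in ESCs and 5 in XEN cells. Gapdh, Aldoa, Pkm and Ldha were within 1.5-fold, while other genes differed in both directions. Pfkp, a phosphofructokinase, had 46.6 and 45.7 TPM in ESCs and 0.121 and 0.148 in XEN cells (6.20 ± 0.15). The kinase gene Pdk1 had 71.0 and 68.9 against 1.57 and 2.17 (4.91 ± 0.18), and the lactate exporter gene Slc16a3 50.4 and 49.5 against 3.50 and 1.5 (4.16 ± 0.33). The lactate transporter gene Slc16a1 and the glucose transporter gene Slc2a3 were higher in XEN cells, by -1.87 ± 0.13 and -2.39 ± 0.32.

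Threonine and one-carbon genes were mostly higher in ESCs, 10 of 17 tested with 1 higher in XEN cells. Mouse ESCs are known to depend on threonine, and Tdh, its dehydrogenase, had 312 and 308 TPM in ESCs and 1.57 and 0 in XEN cells (8.26 ± 0.63, and 7.23 or 9.28 without one or the other XEN library). Amt, of the glycine cleavage system, had 179 and 142 against 6.81 and 7.22 (4.41 ± 0.15), and Phgdh overlapped between the groups. Of 20 tested genes of cholesterol and fatty acid synthesis 7 were higher in ESCs, among them Idi1 and Hmgcs1 of the sterol branch, and 4 in XEN cells. The stearoyl-CoA desaturase genes Scd1 and Scd2 were higher in XEN cells, at 65.9 and 61.4 against 606 and 630 (-3.27 ± 0.11) and at 401 and 431 against 4677 and 6669 (-3.75 ± 0.19).

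Lysosomal genes were higher in XEN cells for 19 of 23 tested, with a median of -2.06. The cathepsin L gene Ctsl had 67.6 and 58.3 TPM in ESCs and 3740 and 1901 in XEN cells (-5.40 ± 0.32, adjusted p = 0.000105), Lgmn, the legumain gene, 10.4 and 8.35 against 524 and 340 (-5.43 ± 0.23), and Ctsh was in the XEN table only at 434 and 215. Gusb, the glucuronidase gene, was higher in ESCs at 13.5 and 13.1 against 1.41 and 1.20 (2.94 ± 0.16), as was Tfeb, the regulator of lysosomal genes (0.98 ± 0.21), and Glb1 overlapped. Of 20 genes of coagulation and plasminogen activation, 2 were in the ESC table only and 1 in the XEN table only. Of the 12 tested, 8 were higher in XEN cells and 0 in ESCs. They include both ends of the cascade, F3, the tissue factor that starts clotting, at 6.93 and 6.25 TPM in ESCs and 1511 and 1247 in XEN cells (-7.60 ± 0.14, adjusted p = 1.76e-05), and its restraints Thbd, Procr (-6.21 ± 0.54, and -5.35 or -7.07 without XEN replicate 1 or 2) and Tfpi (-3.01 ± 0.25).

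Among cell cycle genes the G1 cyclins differed in both directions. Ccnd1 had 270 and 248 TPM in ESCs and 10.4 and 19.5 in XEN cells (4.13 ± 0.29), Ccnd2 15.1 and 18.8 against 296 and 246 (-3.96 ± 0.16), and Ccne1 460 and 444 against 74.1 and 99.4 (2.39 ± 0.16). Ccna2 and Cdk1 were within 1.5-fold. The CDK inhibitor genes were higher in XEN cells, Cdkn1a at 43.2 and 40.4 against 348 and 195 (-2.63 ± 0.27), Cdkn1b by -2.26 ± 0.11 and Cdkn2a by -2.38 ± 0.16. Trp53, which encodes p53, a known activator of Cdkn1a, was higher in ESCs at 664 and 617 TPM against 114 and 99.7 (2.58 ± 0.12, adjusted p = 5.96e-05). Myc was higher in ESCs (1.68 ± 0.13). Of 21 tested cell cycle and MYC genes 8 were higher in XEN cells, 6 in ESCs and 7 were not DE, close to the shares of all genes.

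Of 15 genes often used as references, 3 were higher in ESCs, 5 in XEN cells and 7 were not DE, close to the shares of all genes. Hprt, the purine salvage enzyme that some E14 sublines in wide use have lost, had 0.116 and 0.212 TPM in ESCs and 28.5 and 25.0 in XEN cells (-5.36 ± 0.17). B2m, the light chain of MHC class I, had 11.1 and 11.4 against 377 and 257 (-4.73 ± 0.20), and Gusb differed by 2.94 ± 0.16. Ywhaz and Tubb5 were within 1.5-fold with overlapping or adjoining libraries (adjusted p = 0.356 and 0.413). The abundant genes with the smallest differences were Rpsa, at 3913 and 3887 TPM in ESCs and 3864 and 3938 in XEN cells, Rpl23a, Rps7, Ccna2, H3f3b, Khsrp, Csnk2b, Tmsb10, Rpl19 and Eif4g1, all between -0.04 and 0.02.

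Within transcription factor families, members were spread over both cell types. Among SOX genes, Sox11 (5.25 ± 0.21) and Sox12 (3.92 ± 0.17) were higher in ESCs, Sox15, Sox3 and Sox1 were in the ESC table only, and Sox7 and Sox17 were higher in XEN cells. Among GATA genes, Gata4 and Gata6 were higher in XEN cells, Gata2 and Gata3 were below 4 TPM in all 4 libraries and not DE, and Gata1 was in the ESC table only. Of 13 tested KLF genes 3 were higher in ESCs, 3 in XEN cells and 7 were not DE. Y-linked genes were present in both cell types, with Ddx3y at 55.3 and 47.7 TPM in ESCs and 38.1 and 38.5 in XEN cells, which was not DE, and 2 of 3 tested higher in ESCs. Of the other lists, 2 of 6 trophoblast genes tested were higher in ESCs and 1, Tead4, in XEN cells, and 1 of 2 fibroblast genes tested was higher in each cell type.

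**Figure D4:**
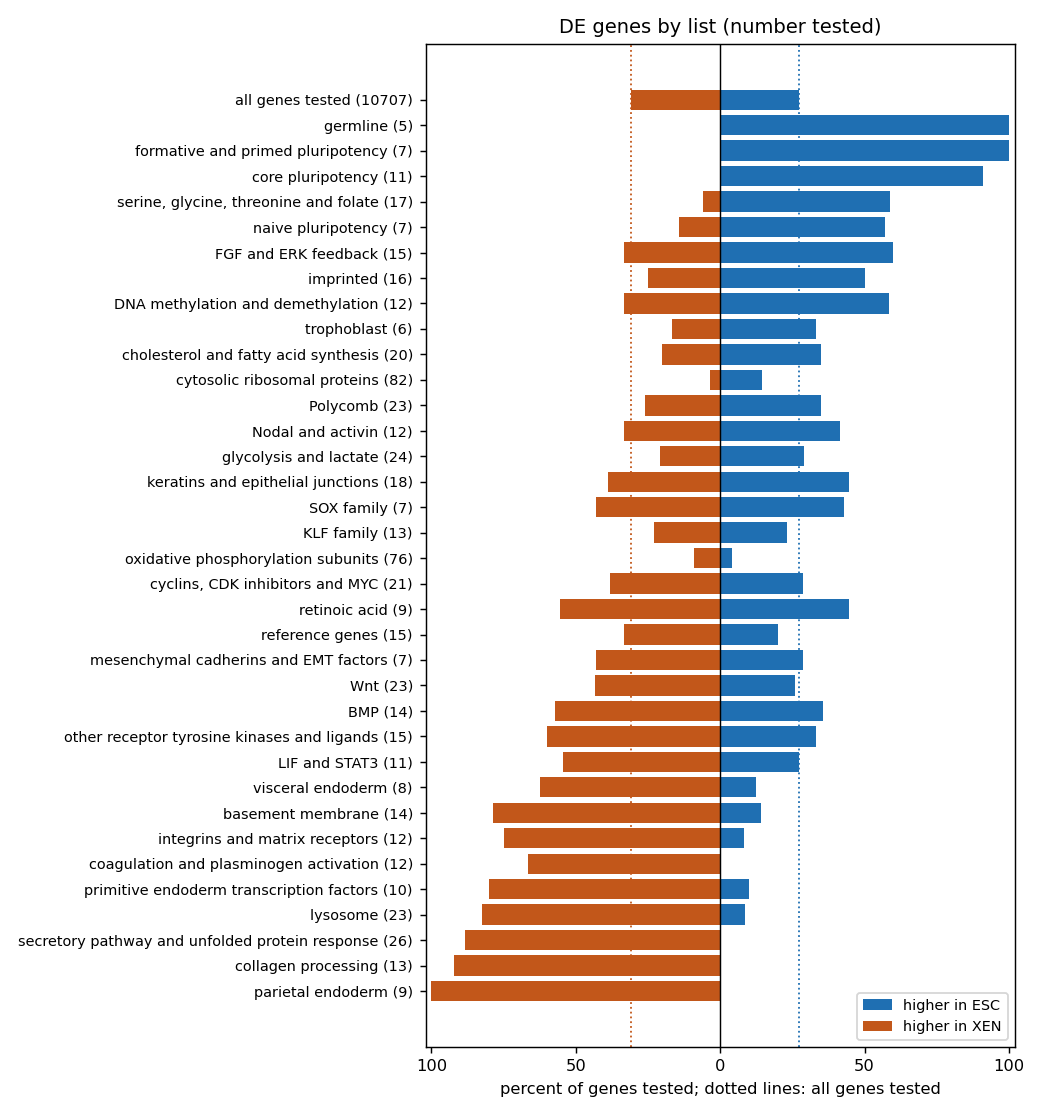
Percent of the tested genes of each list that were DE and higher in ESCs (blue, to the right) or in XEN cells (orange, to the left), with the number tested in parentheses. Dotted lines mark the 27.3% and 31.0% of all 10707 genes tested. Parietal endoderm genes reach 9 of 9 higher in XEN cells, and only 10 of 76 subunits of oxidative phosphorylation are DE.

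The remaining genes of largest difference belonged to no list. In ESCs they were Slc7a3, a cationic amino acid transporter at 458 and 425 TPM against 0.681 and 0.999 (8.38 ± 0.16), the hydroxysteroid dehydrogenase gene Hsd17b14 (7.79 ± 0.18), AU018091 (7.65 ± 0.39, and 7.06 or 8.25 without one or the other XEN library) and Hmga1b (7.64 ± 0.24), a near copy of Hmga1 with which it may share reads. In XEN cells they were Nxf7, of the nuclear RNA export factor family, at 0.405 and 0.0956 TPM against 449 and 287 (-8.94 ± 0.30), and Tinagl1, a matrix protein, at 3.52 and 1.46 against 1321 and 818 (-8.53 ± 0.39).

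Genes held by 1 table have no value in the other cell type, since the authors' filter left them out there, so no fold or test is given for them. The ESC set was 2507 genes, of which 1043 had a deposited TPM above 1 in both normoxic libraries and 268 a mean above 10 TPM, and it held 2.29% of the ESC table's TPM. The XEN set was 467 genes, of which 206 were above 1 in both and 63 had a mean above 10, and it held 0.392%. The highest of the ESC set were Sox2, Trh (the thyrotropin-releasing hormone precursor, 1000 and 1488 TPM), Rbmxl2, Rpl10l, Nanog, Ifitm1, Zfp42, Foxd3, Nr0b1 and Zcchc3. Rbmxl2 and Rpl10l are retrocopies of genes active in all cells and may hold reads of these. The highest of the XEN set were the water channel Aqp8, at 632 and 685 TPM, Ctsh, Tpbgl, the calcium-binding S100g, Tcf23, Glipr1, S100a1, the hexokinase-like Hkdc1, the adenosine receptor Adora1 and Birc7, an inhibitor of apoptosis. None of the XEN set but Aqp8 and Ctsh had a mean above 300 TPM, and 10 of the ESC set did.

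The differences were not spread evenly over the genome. By chromosome, the median difference lay between -0.09 and 0.21 for 15 of the 20 chromosomes with 20 or more genes tested and was lower for the other 5. On chromosome 1, 281 of 571 genes tested were higher in XEN cells (49.2%) and 65 in ESCs (11.4%), with a median of -0.572. Chromosomes 6, 19, 12 and 14 followed with medians of -0.343, -0.330, -0.291 and -0.265. Among genes above the median level of those tested these were -0.366, -0.44, -0.352 and -0.056. On chromosome 1 the shift ran along the whole chromosome, since all 9 intervals of 20 Mb with 20 or more genes had a median between -0.81 and -0.30. Of the 126 such intervals elsewhere 43 had a median under 0. Among the genes in all 3 tables, chromosome 1 had a median of -0.564 for TSCs minus XEN cells and -0.137 for ESCs minus TSCs. On days 2 and 7 of hypoxia the median for ESCs minus XEN cells was -0.557 and -0.435.

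A single stretch of chromosome 19 had the lowest median of all 135 intervals, -1.41 between 40 and 60 Mb (GRCm38). In steps of 5 Mb the median was between -0.32 and 0.12 up to 35 Mb, -1.26 from 35 to 40, -1.89 from 40 to 45 and -2.01 from 45 to 50 Mb, and 0.27 from 50 to 55 Mb. Several of these steps hold under 20 genes, that from 50 to 55 Mb 11. From 35 to 50 Mb, limits that were set after the values were seen, 89 of 111 genes tested were higher in XEN cells (80.2%), 3 in ESCs and 19 were not DE, and 52 were over 4-fold higher in XEN cells (46.8%). Both XEN libraries were above both ESC libraries for 95 of the 111 genes, beside 42.7% of all genes tested, and the median was between -1.98 and -1.71 for the 4 pairs of an ESC and a XEN library. Between replicates the median difference there was 0.04 in XEN cells and 0.08 in ESCs. In this stretch the median was -1.83 for TSCs minus XEN cells and 0.20 for ESCs minus TSCs over the 109 genes in all 3 tables. In hypoxia the median for ESCs minus XEN cells was -1.59 on day 2 and -1.56 on day 7. Members of the lists above that lie in this stretch are Pcgf5, Hhex, Cyp26a1, Rbp4, Scd2, Scd1, Ndufb8 and Pcgf6, all higher in XEN cells (Rbp4 by -2.64 ± 0.59, and -1.75 or -3.53 without XEN replicate 1 or 2), and Pgam1, which was not DE. DNA copy number was not measured in these data, and its part in these shifts was not tested.

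**Figure D5:**
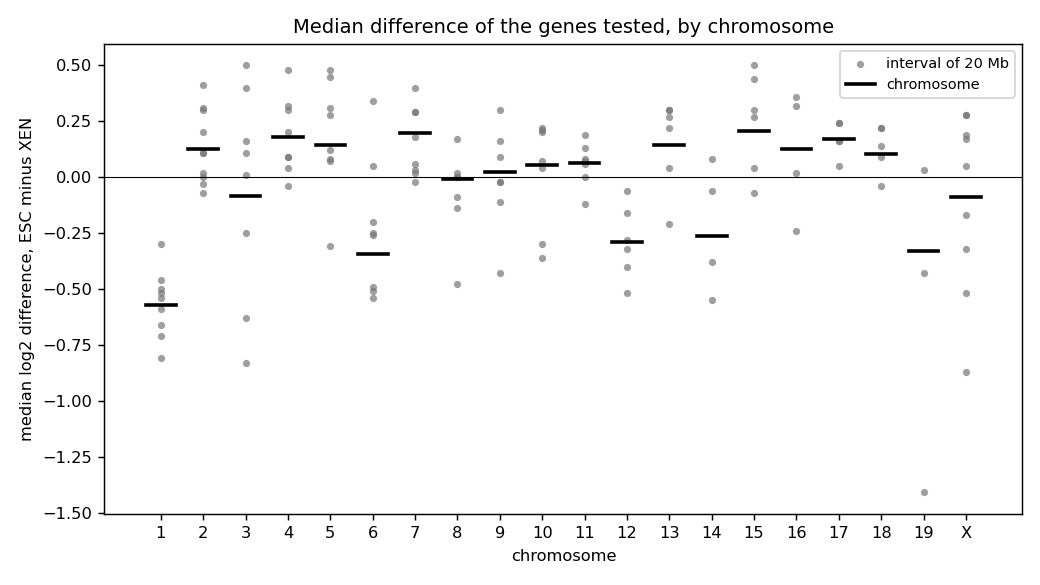
Median log2 difference (ESC minus XEN) of the genes tested, by chromosome (black bars) and by interval of 20 Mb with 20 or more genes (grey points). Chromosome 1 lies at -0.572 with every interval below 0, and 1 interval of chromosome 19 lies at -1.41.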

How the data were processed

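RNA-seq of 2 normoxic ESC and 2 normoxic XEN libraries was compared. The authors deposited TPM per gene and library. Per the labels and the paper, reads were trimmed with cutadapt 2.4, aligned to mm10 with STAR 2.7.5a, assembled with StringTie 2.0.6 on a GENCODE annotation and counted with featureCounts, and protein-coding genes were kept that passed 0.4 CPM (edgeR 3.26.8) in 2 or more of a cell type's 6 libraries. Whether strand was used in counting is not given in the sources used here, so overlapping genes on opposite strands may share reads. The tables were scaled separately. TPM times gene span fell within 0.05 of whole multiples of a common step for 98.66% to 98.87% of values per library, which gave the recovered reads.

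Columns were rescaled to 1000000 over the shared genes, and limma 3.58.1 (R 4.3.3) was applied to log2(TPM + 0.5) with a mean-variance trend and no covariate. Nothing in the labels says that replicates came from separate thawings or clones, so p-values measure the spread between these libraries. The fit was tested on simulated data. Gene lists came from general knowledge, and the members and lists were chosen with earlier results of these data known. Genes named are list members (at most 8 with values for long lists, counting apart markers, genes given for a lost call and genes named under the other rules), the 10 DE genes per direction with the largest difference, no overlap and over 1 TPM in the higher cell type, the 10 highest genes of each single-table set and the 10 abundant genes with the smallest difference. Promoters are RefSeq's (GRCm38.p6), found for 8649 of 10707 genes tested, gene positions GENCODE's. TSC and hypoxic libraries served the chromosome medians and alternatives. Alternatives were other pseudocounts, filters, scalings, gene lengths, thresholds, tools and libraries. Python 3.11.15 and matplotlib 3.10.9 were used. Some list members are counted in the lists and sums but not reported here.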

Additional observations from a re-analysis of the deposited data

How the results depend on the processing

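Counts of DE genes kept within 1.5 times of 2927 and 3321 under each alternative but one, an adjusted p at or under 0.05 with over 2-fold, which left 1729 higher in ESCs. Leaving out a library gave 2631 to 3070 and 3001 to 3418. Quantile normalization (3367 and 3006) and exon lengths (3453 and 3067) moved the median of all genes from 0.01 to 0.13, and list medians below are relative to it. With the replicate number as a block 2946 and 3348 were DE, no named gene lost its call and 6 gained one. Same-numbered libraries deviated together with a correlation of 0.028, so the block was no part of the design. With a deposited TPM above 1 in both libraries the single-table sets fell to 1043 and 206 genes.

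Of 630 list medians under alternatives, 33 moved by more than the replicate spread of their genes and 3 reversed. In mesenchymal genes the median of -0.41 was 0.72 with TPM above 1, -0.68 by voom, -0.70 to -0.29 without one library, -0.72 on day 2 and 0 on day 7. The SOX median of -0.46 was -0.79 to 0.26 without one library (0.26 without XEN replicate 1) and 0.05 on day 7. With the day 2 libraries the medians were 4.80 for formative genes, -6.96 for primitive endoderm factors, -7.44 for parietal endoderm, -3.47 for basement membrane, -2.06 for retinoic acid, 0.73 for DNA methylation, 0.20 for cholesterol, -1.79 for lysosome and 0.25 for oxidative phosphorylation. On day 7 they were 6.35 for core pluripotency, -3.39 for basement membrane, 0.76 for DNA methylation, 3.50 for germline and 0.63 for cholesterol. By voom they were 6.22 for core pluripotency, -8.77 for parietal endoderm, 4.89 for germline and 0.56 for trophoblast. Parietal endoderm was -7.85 and germline 4.76 with a pseudocount of 0.1, germline 2.34 with 1 and 3.69 with TPM above 1, and both -7.73 and 4.4 with exon lengths. Leaving out a library gave 1.31 to 2.16 for naive factors, 2.90 to 3.32 for germline and -1.63 to -1.19 for secretory genes. The cause of these shifts was not tested.

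Of 363 named genes with a call, 59 lost it in some alternative and 37 when a library was left out. With hypoxic libraries Tbx6 was 1.06, Sdc1 0.02, Chrd 0.06, Pgk1 0.05 and Ndufb6 0.65 on day 2, and Pgk1 was 0.12, Gcsh 0.37, Mycl 1.05 and Sox13 0.07 on day 7, each of the other sign than in normoxia. Genes under about 1 TPM are limited by depth and by the pseudocount.

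The intervals of 20 and 5 Mb and the medians against TSCs were chosen after seeing the data. For chromosome medians the 1 alternative run kept only genes above the median level of those tested, where chromosome 14 went from -0.265 to -0.056, chromosome 3 from -0.085 to 0.14 and X from -0.091 to 0.005.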
